A study of Mus musculus with 3 samples.

Results

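The Schlafen genes of the mouse lie side by side on chromosome 11, and 7 of them (Slfn1, Slfn2, Slfn3, Slfn4, Slfn5, Slfn8 and Slfn9) are described here in bone marrow (BM) Ly6G+ myeloid cells. They were taken by their symbols, the family having been picked with earlier results of these data known, and all 7 were found among the 16072 named genes of the table. Gene expression was measured by RNA sequencing in 3 libraries, 2 labelled AAV-ctrl and 1 labelled AAV-IL27. All donors were C57BL/6 mice that carried B16.F10 melanoma, placed under the skin 1 week before the vector, and cells were taken 3 weeks after the vector. AAV-IL27 mice received into muscle an adeno-associated virus vector of serotype 2/8 that makes the mouse produce IL-27, a cytokine of p28 and EBI3 chains, here joined as 1 chain behind the CAG promoter, which is active in many cell types. AAV-ctrl mice received the empty vector. The labels name no deleted gene or transgene, and ages are not given per library.

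Schlafen proteins are named after the German word for sleeping, because early members slowed the growth of thymocytes when overexpressed. Many of the genes are induced by interferons, and several of the proteins bind or cut transfer RNA. Mouse members fall into short forms (Slfn1 and Slfn2), intermediate forms (Slfn3 and Slfn4) and long forms with an added helicase-like part (Slfn5, Slfn8 and Slfn9). IL-27 signals through the receptor chains IL27RA and gp130 and through JAK kinases, so it shares part of its signalling with interferons.

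The stretches before the long genes are shown because these members had the larger positive differences from AAV-ctrl. Each is the 250 bases before a transcript start, in RefSeq sequence of GRCm38.p6, the assembly that mm10 also denotes, written 5′ to 3′ on the strand of the gene, with capitals for the letters GAAANNGAA on either strand, an arrangement like that of interferon response elements.
Slfn5: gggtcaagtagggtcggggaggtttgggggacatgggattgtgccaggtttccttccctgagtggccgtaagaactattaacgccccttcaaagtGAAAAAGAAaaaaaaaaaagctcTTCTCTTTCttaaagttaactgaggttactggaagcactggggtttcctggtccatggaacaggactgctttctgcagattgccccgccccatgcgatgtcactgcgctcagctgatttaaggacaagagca
Slfn8: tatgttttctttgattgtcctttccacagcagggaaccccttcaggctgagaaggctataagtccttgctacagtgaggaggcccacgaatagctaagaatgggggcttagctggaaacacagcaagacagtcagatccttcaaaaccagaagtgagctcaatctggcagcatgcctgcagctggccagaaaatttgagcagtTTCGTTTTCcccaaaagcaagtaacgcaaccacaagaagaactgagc
Slfn9: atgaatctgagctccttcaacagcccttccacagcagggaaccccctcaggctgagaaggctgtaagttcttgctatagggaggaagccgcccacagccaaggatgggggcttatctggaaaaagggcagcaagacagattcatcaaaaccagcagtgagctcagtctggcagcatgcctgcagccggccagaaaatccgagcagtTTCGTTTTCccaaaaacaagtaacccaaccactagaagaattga
The Slfn5 stretch lies at chr11:82951852-82952101 on the plus strand, inside the span that RefSeq gives for the gene. The Slfn8 stretch lies at chr11:83020811-83021060 and the Slfn9 stretch at chr11:82991831-82992080, both on the minus strand. Slfn5 held 2 matches, starting 155 and 132 bases before the transcript start, Slfn9 held 1 at 44 bases, and Slfn8 held 1 at 47 bases, which its other, overlapping RefSeq window also contained. The Slfn8 and Slfn9 matches have the same 9 letters, and these stretches were 85.0% identical over 233 aligned bases. Windows of 300 bases around the starts of Slfn1, Slfn2, Slfn3 and Slfn4 held no match. Across 32851 such windows, 8.56% held the letters at least once. The letters TTCNNNGAA, an arrangement like that of STAT sites, were in no window of a member and in 8.30% of all windows. A match describes letters only, and binding was not measured.

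The short and intermediate members shared other letters, noticed on reading their sequences. Each of the lines below holds 59 bases from before a transcript start, on the plus strand of the same assembly, with capitals for ACTTCCTGG.
Slfn1: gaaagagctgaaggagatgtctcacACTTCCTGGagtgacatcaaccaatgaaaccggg
Slfn2: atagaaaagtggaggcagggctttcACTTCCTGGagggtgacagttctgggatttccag
Slfn4: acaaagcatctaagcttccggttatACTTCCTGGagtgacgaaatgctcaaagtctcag
Slfn3: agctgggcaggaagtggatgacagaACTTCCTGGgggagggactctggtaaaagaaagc
These stretches lie at chr11:83116721-83116779, chr11:83065032-83065090, chr11:83175088-83175146 and chr11:83191263-83191321. The capitals start 74, 55, 73 and 42 bases before the transcript starts of these windows, and the Slfn4 start used lies inside the RefSeq span of that gene. The letters, on either strand, were in 0.843% of all 32851 windows and in none of those of Slfn5, Slfn8 and Slfn9. Since they were picked from these sequences, that share is no test of them.

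Levels are given as FPKM, fragments scaled to transcript length and library size, so that genes can be compared with each other. The libraries were of like depth, estimated at 19400000 and 19500000 fragments in AAV-ctrl and 19100000 in AAV-IL27. Differences are taken in log2(FPKM + 1), AAV-IL27 minus AAV-ctrl, and the added 1 shrinks them for weakly expressed genes. The single AAV-IL27 library that the labels list has no replicate error and gives no p-value, so each result is printed beside the gap from AAV-ctrl 1 to AAV-ctrl 2. Over the 9130 genes whose FPKM averaged 1 or more, called tested genes here, this control difference had a median size of 0.087 and a 95th percentile of 0.335. Neutrophil markers were abundant in every library, with 15 of 15 tested and S100a8 and S100a9 highest. Their summed FPKM was 176784.9 and 172483.5 in AAV-ctrl and 167550.9 in AAV-IL27. Above both AAV-ctrl libraries lay 5 and below both lay 7, against 38.9% and 41.9% of all tested genes. Ly6g was among the lower, at 711.76 and 766.11 in AAV-ctrl and 586.29 in AAV-IL27. Of 12 T and NK cell markers only 3 were tested, and 0 were at least 1 log2 unit higher or lower. Of all tested genes, 2.32% were at least 1 log2 unit lower in AAV-IL27 than in each AAV-ctrl library. Erythroid markers were that much lower for 12 of 12 genes, macrophage markers for 12 of 15 and B cell markers for 5 of 7. The macrophage markers outside that count were Adgre1, Csf1r and Slc40a1, with log2 differences of -0.25, -0.02 and -0.4. Of 9 tested monocyte markers, 0 were at least 1 log2 unit higher and 0 lower, while 5 lay above both AAV-ctrl libraries and 2 below both. The summed macrophage markers stood at 1097.3 and 1064.6 FPKM in AAV-ctrl and 433.5 in AAV-IL27, and the B cell markers at 35.5, 47.1 and 6.46. The part of these cells in the members' differences was not tested. In such bulk samples, fewer cells of a type and less RNA per cell cannot be told apart.

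The levels of the members fell into 3 tiers, and the highest was made up of Slfn4, Slfn2 and Slfn1. Slfn4, a member known from myeloid cells, had the highest mean level, with FPKM values of 516.44 and 557.20 in AAV-ctrl and 526.14 in AAV-IL27. Slfn2, which keeps T cells and monocytes in a resting state and protects transfer RNA, stood at 475.06 and 466.45 in AAV-ctrl and 535.58 in AAV-IL27. Slfn1, the founding member, stood at 385.31 and 387.36 in AAV-ctrl and 422.58 in AAV-IL27. These 3 genes ranked between 112 and 154 among all named genes in every library. They held nearly all of the family's summed level, which was 0.236%, 0.246% and 0.266% of the FPKM of all genes in AAV-ctrl 1, AAV-ctrl 2 and AAV-IL27.

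The remaining members were much lower. The long member Slfn8 stood at 13.53 and 16.04 in AAV-ctrl and 21.11 in AAV-IL27. Slfn5, a long member induced by type I interferon in human and mouse cells, stood at 11.37 and 14.92 in AAV-ctrl and 18.25 in AAV-IL27. The lowest value of Slfn1 was 18.3 times the highest of Slfn8, and the lowest of Slfn5 was 7.73 times the highest of Slfn3. Slfn3, described in T cells and intestinal epithelium, had FPKM values of 1.47 and 1.05 in AAV-ctrl and 0.65 in AAV-IL27. Slfn9 had values of 0.33 and 0.71 in AAV-ctrl and 0.83 in AAV-IL27. In the order Slfn4, Slfn2, Slfn1, Slfn8, Slfn5, Slfn3 and Slfn9, the ranges over the 3 libraries overlapped between Slfn4 and Slfn2, between Slfn8 and Slfn5 and between Slfn3 and Slfn9. The first and the last of these pairs kept their order in 2 of 3 libraries, and Slfn8 was above Slfn5 in 3 of 3.

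**Figure D1:**
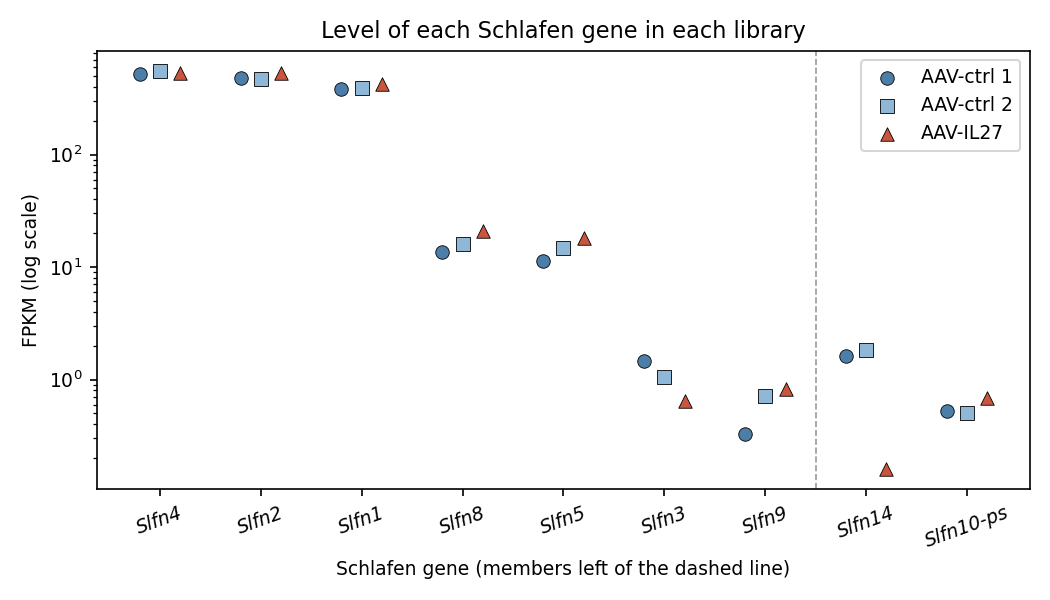
FPKM on a log axis for the 7 members, left of the dashed line, and the related genes Slfn14 and Slfn10-ps, in each of the 3 libraries, with 1 point for each library. Slfn4, Slfn2 and Slfn1 lie between 385.31 and 557.20, Slfn8 and Slfn5 between 11.37 and 21.11, and Slfn3 and Slfn9 between 0.33 and 1.47.

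No member passed the rule used over all genes, a distance of at least 1 log2 unit above or below each AAV-ctrl library. Of the 6 tested members, 0 were higher and 0 were lower, where 0.307% of 9130 genes were higher and 2.32% were lower. Smaller differences went mostly upwards. By any amount, 4 of the 6 lay above both AAV-ctrl libraries, against 38.9% of all genes tested, 1 lay below both, against 41.9%, and Slfn4 lay between them. Their median log2 difference was 0.16, beside -0.01 over all genes tested, and the median of their control differences was 0.06.

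Among the short forms the differences were small and the AAV-ctrl libraries were close together. Slfn1 was 386.3 ± 1.45 FPKM (SD, n = 2) in AAV-ctrl, and the AAV-IL27 library was 109.4% of that mean, 0.13 log2 units above each AAV-ctrl library, which differed by 0.01. Slfn2 was 470.8 ± 6.09 FPKM (SD, n = 2) in AAV-ctrl, and the AAV-IL27 library was 113.8% of that mean, 0.17 and 0.20 log2 units above the AAV-ctrl libraries, which differed by -0.03. Both genes thus lay outside the range of the AAV-ctrl libraries. Of all 9130 genes, 17.2% lay at least as far above both AAV-ctrl libraries as Slfn1 and 11.5% at least as far above both as Slfn2. Genes as far below were not counted. Counting error was smaller than these differences. Slfn1 rested on an estimated 13360 and 13559 fragments in AAV-ctrl and 14493 in AAV-IL27, and the 95% Poisson interval of the last, from 14258.0 to 14730.9, overlapped neither of the others. Such intervals do not include the spread between mice.

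The intermediate forms differed from each other. Slfn4 was 536.8 ± 28.8 FPKM (SD, n = 2) in AAV-ctrl, and the AAV-IL27 value was 98.0% of that mean, 0.03 above AAV-ctrl 1 and 0.08 below AAV-ctrl 2 on the log2 scale, with 0.11 between the AAV-ctrl libraries. Slfn3 was the only member below both AAV-ctrl libraries, by 0.58 and 0.31 log2 units, but the AAV-ctrl libraries differed by -0.27. Its values stand for an estimated 50 and 36 fragments in AAV-ctrl and 22 in AAV-IL27. The interval of the AAV-IL27 count, from 13.8 to 33.3, overlapped that of AAV-ctrl 2, from 25.2 to 49.8, but not that of AAV-ctrl 1, from 37.1 to 65.9. The Slfn3 and Slfn4 transcripts are 92.5% identical over 1714 bases, 94.4% of the shorter one, and Slfn2 and Slfn3 share 379 bases at 95.3%. Fragments could therefore be split between them by the authors' counting, and the low Slfn3 value beside the abundant Slfn4 is uncertain. The sum of Slfn3 and Slfn4 was 517.9 and 558.2 FPKM in AAV-ctrl and 526.8 in AAV-IL27, a log2 difference of -0.03.

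The long forms Slfn8 and Slfn5 had the largest positive differences among the members. Slfn8 in AAV-IL27 was 142.8% of the AAV-ctrl mean of 14.8 ± 1.77 FPKM (SD, n = 2), 0.61 and 0.38 log2 units above the AAV-ctrl libraries. Slfn5 in AAV-IL27 was 138.8% of the AAV-ctrl mean of 13.1 ± 2.51 FPKM (SD, n = 2), 0.64 and 0.27 log2 units above the AAV-ctrl libraries. For both genes AAV-IL27 was the highest library and AAV-ctrl 1 the lowest, and the AAV-ctrl libraries already differed by 0.23 for Slfn8 and 0.36 for Slfn5. The distance from AAV-IL27 to the nearer AAV-ctrl library thus exceeded the control difference for Slfn8 and did not for Slfn5. Of all genes tested, 2.95% lay at least as far above both AAV-ctrl libraries as Slfn8 and 5.38% at least as far above both as Slfn5. Slfn5 rested on an estimated 1304 and 1720 fragments in AAV-ctrl and 2062 in AAV-IL27, with intervals that did not overlap among the 3 libraries, so the AAV-ctrl libraries differed from each other by more than counting error too.

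Slfn9 had a mean FPKM of 0.623 and was left out of counts over tested genes. It lay 0.46 and 0.10 log2 units above the AAV-ctrl libraries, which differed by 0.36. Its estimated fragments were 36 and 79 in AAV-ctrl and 90 in AAV-IL27, and the interval of the last, from 72.4 to 110.6, overlapped that of AAV-ctrl 2, from 62.5 to 98.5. The Slfn8 and Slfn9 transcripts are 92.6% identical over 3496 bases, and Slfn10-ps, a transcribed pseudogene, is 92.2% identical to Slfn8 and 92.1% to Slfn9, so single values of these genes are uncertain. Summed, Slfn8 and Slfn9 stood at 13.9 and 16.8 FPKM in AAV-ctrl and 21.9 in AAV-IL27, a log2 difference of 0.50 beside 0.26 between the AAV-ctrl libraries, and 0.50 with Slfn10-ps added. Slfn5 has no close relative among the members, with 66.2% identity to Slfn8 over 1007 bases. An antisense gene, Slfn5os, overlaps Slfn5, and whether strand was used in the counting is not given in the sources used here.

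**Figure D2:**
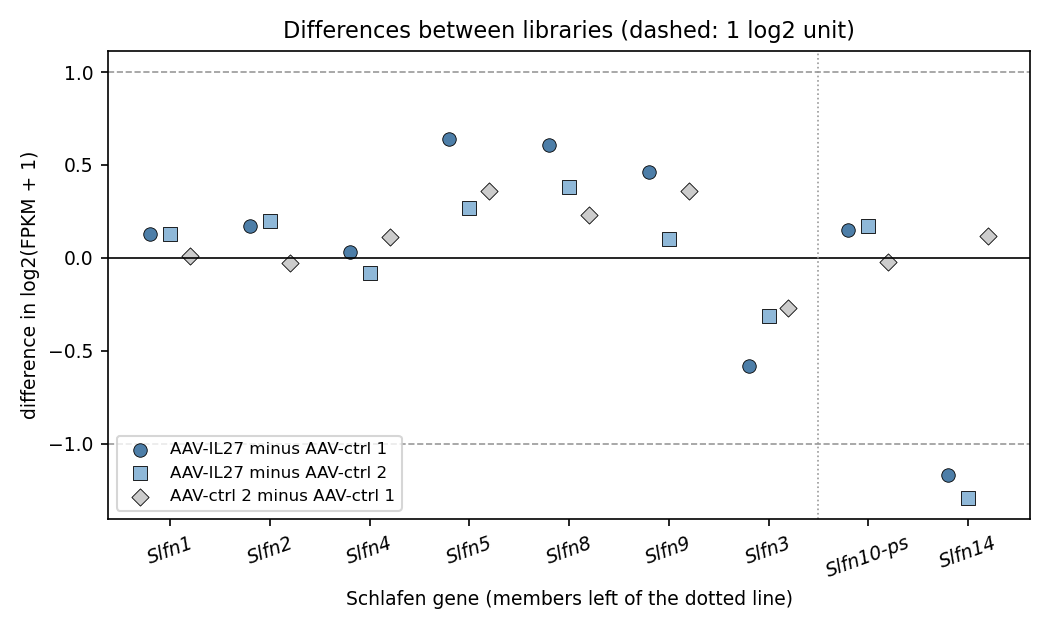
Differences in log2(FPKM + 1) for each Schlafen gene between AAV-IL27 and each AAV-ctrl library, and between the AAV-ctrl libraries (diamonds), with dashed lines at 1 log2 unit in each direction. All members lie within the dashed lines, Slfn5 and Slfn8 are highest against AAV-ctrl 1 at 0.64 and 0.61, and Slfn14 lies at -1.17 and -1.29.

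Summed over the 7 members, FPKM was 1403.5 and 1443.7 in AAV-ctrl and 1525.1 in AAV-IL27, a log2 difference of 0.10 beside 0.04 between the AAV-ctrl libraries. The sum follows the 3 abundant genes, whose own log2 difference was 0.09. The other 4 members together stood at 26.7 and 32.7 FPKM in AAV-ctrl and 40.8 in AAV-IL27, a log2 difference of 0.45 beside 0.28 between the AAV-ctrl libraries.

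Of the Schlafen genes outside the 7, Slfnl1 had no row, and Slfn10-ps was listed at 0.52 and 0.50 FPKM in AAV-ctrl and 0.69 in AAV-IL27. Slfn14, a long form known from platelets and red cell precursors, where its protein cuts RNA on ribosomes, had the largest difference of any Schlafen gene measured. It stood at 1.61 and 1.83 FPKM in AAV-ctrl and 0.16 in AAV-IL27, 1.17 and 1.29 log2 units below the AAV-ctrl libraries, which differed by 0.12. The estimated fragments were 113 and 130 in AAV-ctrl and 11 in AAV-IL27, and the interval of the last, from 5.5 to 19.7, overlapped neither of the others. Of all genes tested, 1.69% lay at least as far below both AAV-ctrl libraries. Its window held 1 match to GAAANNGAA, 197 bases before the start. The summed FPKM of the 12 erythroid markers moved the same way, from 20519.1 and 13864.7 in AAV-ctrl to 2359.4 in AAV-IL27, with Hba-a1 and Hbb-bs highest and no marker at 0. The 8 megakaryocyte markers together stood at 77.1 and 86.1 in AAV-ctrl and 32.2 in AAV-IL27. At least 1 log2 unit lower were 3 of 6 tested (Pf4, Ppbp and Itga2b), against 2.32% of all genes tested. The part of these cells in the Slfn14 value was not tested.

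Because Schlafen genes belong to the interferon response, other interferon-stimulated genes were set beside them. Of 36 listed genes, 32 were tested. By the rule of 1 log2 unit 1 was higher and 0 were lower, against 0.307% and 2.32% of all genes tested. The 1 gene was Cxcl10, a chemokine that attracts T cells, at 1.29 and 2.85 FPKM in AAV-ctrl and 11.80 in AAV-IL27. The antiviral gene Ifit3, chosen after its values were seen, stood at 14.44 and 30.02 in AAV-ctrl and 59.54 in AAV-IL27. In total, 24 of 32 lay above both AAV-ctrl libraries and 3 below both, against 38.9% and 41.9% of all genes tested. The median log2 difference was 0.36. The AAV-ctrl libraries differed in the same list by a median of 0.30, AAV-ctrl 2 being higher, so the level of these genes was not equal between the control libraries.

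The most abundant genes of that list were Samhd1, which cleaves deoxynucleotides, and the oligoadenylate synthetase family genes Oas3 and Oasl2. Samhd1 stood at 341.42 and 367.90 FPKM in AAV-ctrl and 374.77 in AAV-IL27. Oas3 stood at 93.12 and 118.00 in AAV-ctrl and 108.95 in AAV-IL27, between the AAV-ctrl libraries. Oasl2 stood at 84.69 and 94.18 in AAV-ctrl and 134.40 in AAV-IL27. An order with AAV-ctrl 1 lowest and AAV-IL27 highest was found for 23 of the 32 genes, 3 of the 6 tested members (Slfn1, Slfn5 and Slfn8) and 16.2% of all genes tested. Slfn8 had a larger difference than 20 of the 32 genes and Slfn5 than 18, while Slfn2 exceeded 11, Slfn1 8, Slfn4 3 and Slfn3 1.

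**Figure D3:**
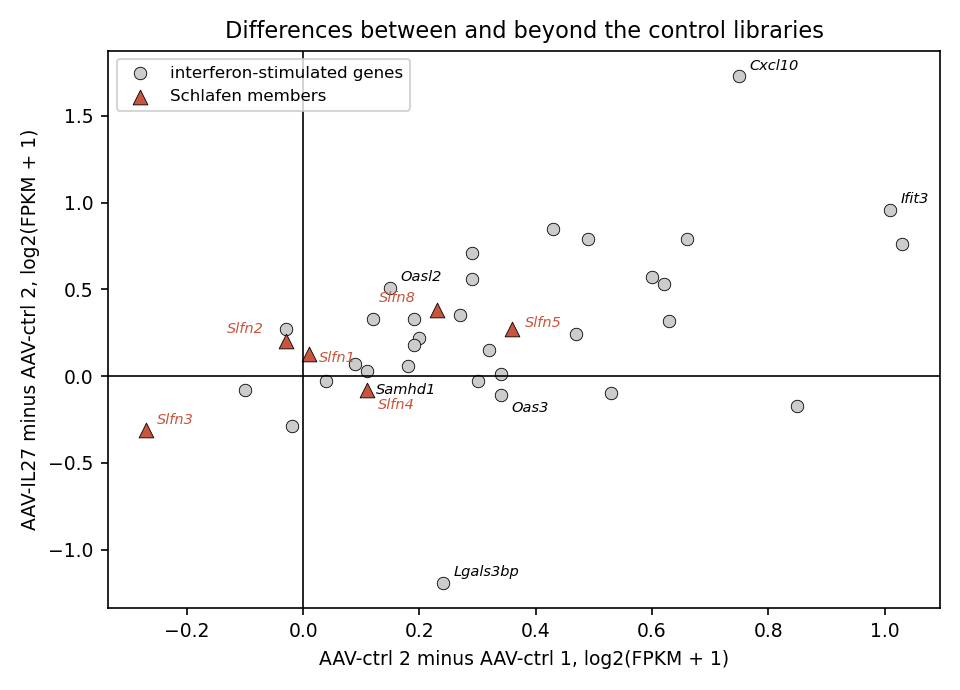
The difference between the AAV-ctrl libraries (horizontal) and the difference from AAV-ctrl 2 to AAV-IL27 (vertical), both in log2(FPKM + 1), for the 6 tested members (triangles) and 32 interferon-stimulated genes (circles). Both axes use AAV-ctrl 2, so a chance low value there would move a point left and up. Slfn5 and Slfn8 lie to the upper right, nearer the crossing of the lines than Ifit3 and Cxcl10. Slfn1 and Slfn2 lie near the vertical line, and Slfn3 lies to the lower left.

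Receptors and signalling factors of IL-27 and interferons showed a smaller median difference. Of 16 listed genes, 14 were tested. By the rule of 1 log2 unit 0 were higher and 0 lower, against 0.307% and 2.32% of all genes tested. Above both AAV-ctrl libraries lay 10 of the 14 and 1 lay below both, against 38.9% and 41.9% of all genes tested. The median log2 difference was 0.18 beside -0.04 between the AAV-ctrl libraries. The kinase gene Jak1 stood at 122.21 and 121.50 FPKM in AAV-ctrl and 131.85 in AAV-IL27. The interferon gamma receptor gene Ifngr2 stood at 104.20 and 98.08 in AAV-ctrl and 115.41 in AAV-IL27. Irf1, a transcription factor that binds interferon response elements, stood at 84.16 and 86.04 in AAV-ctrl and 103.53 in AAV-IL27. All 3 genes, the most abundant of the list, were higher in AAV-IL27 than in either AAV-ctrl library, by 0.11, 0.19 and 0.28 log2 units from the AAV-ctrl mean. The lowest and highest log2 differences of the tested genes were those of Socs3, at -1.09, and Socs1, at 0.84, named after their values were seen. Socs3 stood at 49.23 and 35.52 FPKM in AAV-ctrl and 19.14 in AAV-IL27, and Socs1 at 3.35, 3.55 and 6.97. Il27ra, chosen after its values were seen, was listed at 0.14 and 0.26 in AAV-ctrl and 0.04 in AAV-IL27, below the minimum for testing.

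The members lie between 82951349 and 83215154 on chromosome 11 of GRCm38.p6, a span of 263.8 kb, in the order Slfn5, Slfn9, Slfn8, Slfn10-ps, Slfn2, Slfn1, Slfn4 and Slfn3, with Slfn14 beyond Slfn3. Slfn8, Slfn9, Slfn10-ps and Slfn14 are on the minus strand and the others on the plus strand. Slfn5 (NCBI Gene 327978) spans 82951349 to 82964850, Slfn9 (237886) 82974316 to 82991830 and Slfn8 (276950) 83002125 to 83020810. Slfn2 (20556) spans 83065112 to 83070678, Slfn1 (20555) 83116820 to 83122670, Slfn4 (20558) 83175172 to 83190216 and Slfn3 (20557) 83191330 to 83215154. In that order, the log2 differences were 0.46 for Slfn5, 0.28 for Slfn9, 0.49 for Slfn8 and 0.16 for Slfn10-ps. They were 0.19 for Slfn2, 0.13 for Slfn1, -0.03 for Slfn4, -0.45 for Slfn3 and -1.23 for Slfn14. Slfn9 and Slfn10-ps were below the minimum for testing, and Slfn3 rested on 22 to 50 estimated fragments. The AAV-ctrl libraries themselves differed by 0.36 for Slfn5 and for Slfn9. A link between position and difference was not tested.

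Protein-coding neighbours within 500 kb on either side numbered 23, of which 21 were in the table and 14 were tested. Their median log2 difference was 0.06. By the rule of 1 log2 unit 2 genes were higher and 1 lower, against 0.307% and 2.32% of all genes tested. The higher genes were the chemokine genes Ccl3, at 9.63 and 8.44 FPKM in AAV-ctrl and 39.20 in AAV-IL27, and Ccl4, at 4.00 and 3.51 in AAV-ctrl and 16.42 in AAV-IL27. The lower gene was Wfdc17, at 75.05 and 48.99 in AAV-ctrl and 15.76 in AAV-IL27. All 3 lie near the far end of the window, 696.5 to 752.7 kb from the first base of Slfn5. Closer to the cluster, Rad51d had a log2 difference of 0.10 and Ap2b1, on the opposite side, one of -0.20. Besides Wfdc17, the most abundant neighbours were Ccl6, at 989.14 and 1129.37 FPKM in AAV-ctrl and 1277.93 in AAV-IL27, and Rffl, at 35.06 and 36.39 in AAV-ctrl and 32.72 in AAV-IL27.

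**Figure D4:**
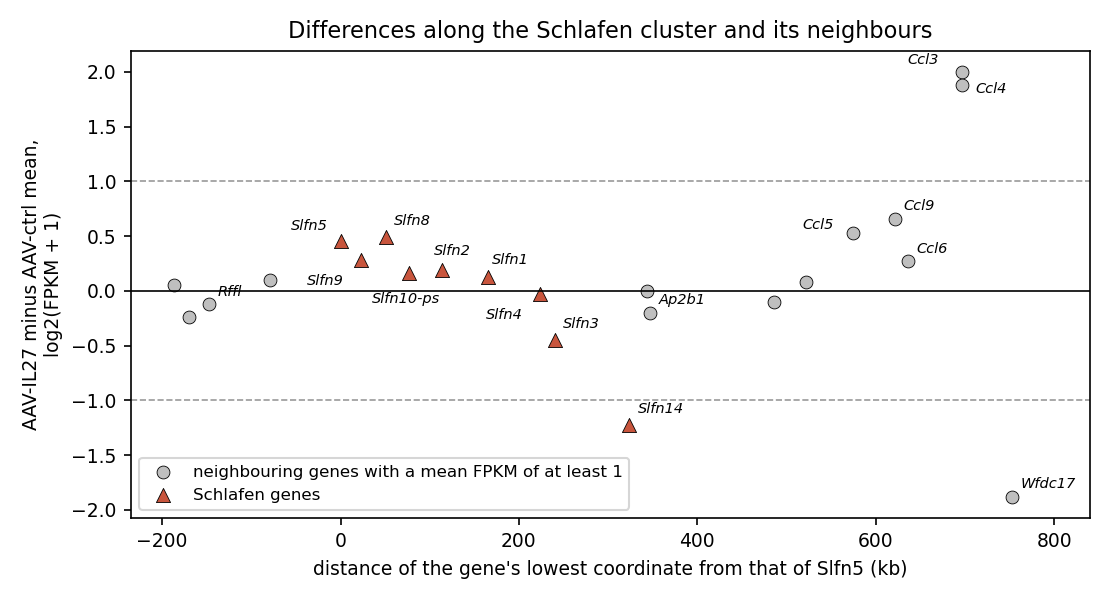
The log2(FPKM + 1) difference between AAV-IL27 and the AAV-ctrl mean for Schlafen genes (triangles) and the 14 tested neighbours (circles), by distance along the chromosome from the lowest coordinate of Slfn5 in kb, with dashed lines at 1 log2 unit. The Schlafen members lie between -0.45 and 0.49, Slfn14 lies at -1.23, and Ccl3, Ccl4 and Wfdc17 lie outside the dashed lines at the far right.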

How the data were processed

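RNA-seq values of 3 libraries were analysed. Per the labels, mRNA was enriched with oligo-dT and strand-marked with dUTP for DNBSEQ sequencing, and the authors deposited FPKM values with 2 decimals for 16073 rows, 1 of them without a symbol and left out. The submitters' processing notes name mm10. The aligner and counter are not given in the sources used here. In the table, 1 more column of values bears the name of another AAV-IL27 replicate. It fits none of the samples listed and was not used, so AAV-IL27 has 1 library here by that choice. The series text counts 4 mice.

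The table holds no counts. Low FPKM values rise in steps set by length and depth. Depth was fitted to them over 10915 genes with a single listed RefSeq transcript that matched 1 transcript in GENCODE M21. Of 321 to 340 low values per library, 74.4% to 78.2% came within 0.2 of whole fragments, so no count test was run. The 95% Poisson intervals are exact and describe counting error alone. Slfn4 and Slfn8 have several transcripts and got no fragment estimate.

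A pseudocount of 1, a minimum mean FPKM of 1 and a threshold of 1 log2 unit from each AAV-ctrl library were used. Members and lists were chosen with earlier results of these data known. The text names the members, other Schlafen genes, called genes and the 3 most abundant of each list, and leading markers. Promoter windows and gene positions came from RefSeq (GRCm38.p6), which matched 16035 genes. Transcripts were compared with BLAST 2.17.0, and transcripts at least 90% identical over at least 50% of the shorter one counted as near-identical. Scripts ran in Python 3.11.15 with pandas 2.3.3, numpy 2.4.6, matplotlib 3.10.9 and scipy 1.17.1.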

Additional observations from a re-analysis of the deposited data

How the results depend on the processing

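Alternatives were pseudocounts of 0.1 and 0.01, scaling by median ratios or to equal totals, other filters, thresholds of 0.5 and 2, and the removal of either AAV-ctrl library. The count of members that passed stayed at 0 in both directions under all of them. With the main settings, 0.307% of all genes tested passed as higher and 2.32% as lower. A count of 0 among so few members therefore does not set them apart from other genes. The log2 difference of Slfn8 ranged from 0.38 to 0.61, of Slfn5 from 0.27 to 0.64, of Slfn9 from 0.10 to 0.76, of Slfn3 from -0.92 to -0.31, of Slfn14 from -3.34 to -1.17, of Slfn1 from 0.13 to 0.19 and of Slfn2 from 0.17 to 0.24, and Slfn4, from -0.08 to 0.03, changed sign. Equal totals moved the summed members to 0.14 and the receptors and signalling factors to a median of 0.22. Median ratios moved the summed members to 0.16, the median of the members to 0.22 and that of the receptors and signalling factors to 0.24. The last was 0.14 with no filter and 0.14 to 0.15 without either AAV-ctrl library. Over all genes, 396 were lower with a pseudocount of 0.1, 46 higher and 425 lower with 0.01, 93 lower at a mean FPKM of at least 5, 143 higher and 640 lower at a threshold of 0.5, and 5 higher and 39 lower at 2. Without AAV-ctrl 1 and without AAV-ctrl 2, 40 and 49 genes were higher. No paired analysis was possible because AAV-IL27 has 1 library, which shares 1 replicate number with AAV-ctrl. The spread between AAV-IL27 mice was not measured in these 3 libraries. Depth limits Slfn3, Slfn9 and Slfn14, which rest on 11 to 130 estimated fragments per library.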
